A study of Mus musculus with 20 samples.

Results

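The genes described here are 40 genes of NRF2 signalling, glutathione metabolism and detoxification, taken from the 24047 genes of a count table of mouse gastric organoids. They were chosen by symbol from a fixed list, which was drawn up with earlier results of these data known. All 40 symbols were rows of the table, and all 40 passed the filter on low counts that left 13476 genes for testing.

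Organoids are epithelial cultures grown in 3 dimensions, here from stomach. All samples were gastric organoids of strain BL/6, grown in conditioned medium, and the 20 RNA-seq libraries came from 8 lines named by the number in front of the library title. The WT (wild-type) lines comprised the non-dysplastic lines 300 and 1269, with 4 libraries, and the dysplastic lines 565 and 752, with 6. Among lines labelled p53 KO (KO), line 650 was non-dysplastic with the knockout made in vivo and line 1270 was non-dysplastic with the knockout made ex vivo, with 2 libraries each. Lines 794 and 801 were KO, dysplastic and made in vivo, with 6 libraries. The series title speaks of KO and KD (not spelled out) and the growth protocol of p53mut organoids, while the genotype label of these lines is p53 KO throughout. The labels do not say whether the lines came from separate animals, what deleted the gene, or what brought about the dysplasia. Each combination of genotype and dysplasia therefore rests on 2 lines, and the 2 non-dysplastic KO lines differ in how the knockout was made.

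NRF2, encoded by Nfe2l2, is a transcription factor that KEAP1 holds in the cytoplasm and hands to a ubiquitin ligase for degradation. Electrophiles and oxidants modify KEAP1, NRF2 then accumulates, pairs with small MAF proteins and binds antioxidant response elements. Its known targets make glutathione, reduce peroxides, supply NADPH and conjugate or export reactive compounds. Because NRF2 is controlled largely through its stability, the Nfe2l2 transcript is not a measure of NRF2 activity. In the stomach these enzymes are known for guarding the epithelium against ingested and luminal oxidants.

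Library totals ran from 5669521 to 16323270 counts, and summed totals per line from 22217126 to 36880593. Levels are given in CPM, the usual depth-normalised read count, here scaled by TMM (edgeR's trimmed mean of M-values), and n counts lines. Trp53, the gene of p53, read 98.6 to 164 CPM over the 10 WT libraries and 4.43 to 33.0 CPM over the 10 from KO lines. In 6 libraries, the highest-numbered one of each of lines 300, 650, 565, 752, 794 and 801, short transcripts were higher and long ones lower than in the same line's other libraries. Lines 1269 and 1270 had no such library. The summed level of 16 gastric epithelial markers was 13598 to 18095 CPM in all lines, with Atp4b at 0. Sums of 10 fibroblast and smooth muscle markers were 8.94 to 65.7 CPM in WT and 11.6 to 118 CPM in KO lines. Sums of immune markers were 19.5 to 52.7 CPM in WT and 9.55 to 33.1 CPM in KO lines, with Emr1 at 0, and those of 3 endothelial markers were at most 3.29 CPM. All 4 haemoglobin markers were at 0. Whether these cells had a part in the values below was not tested. By Xist and Ddx3y the only male lines were 300 and 650, both non-dysplastic, and the other 6 were female.

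Between KO and WT lines, as the mean of both dysplasia classes, most of the 40 genes leaned low in KO. Of the 40 genes 33 had a negative log2 fold change, against 51.5% of all genes tested. Their median log2 fold change was -0.29, and that of all genes was -0.01. EdgeR's quasi-likelihood test called none of the 40 and 0% of all genes. At an unadjusted p under 0.05, 11 of the 40 were lower, against 1.63% of all genes, and 0 were higher, against 2.4%. DESeq2 called Nfe2l2 and Gsto1 lower (it called 0.549% of all genes), and limma-voom on libraries, with a correlation within lines, called 0 of the 40 (0.497% of all genes). The median was -0.08 without line 300 and -0.41 without line 1269, so the size of this lean moved with single WT lines.

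**Figure D1:**
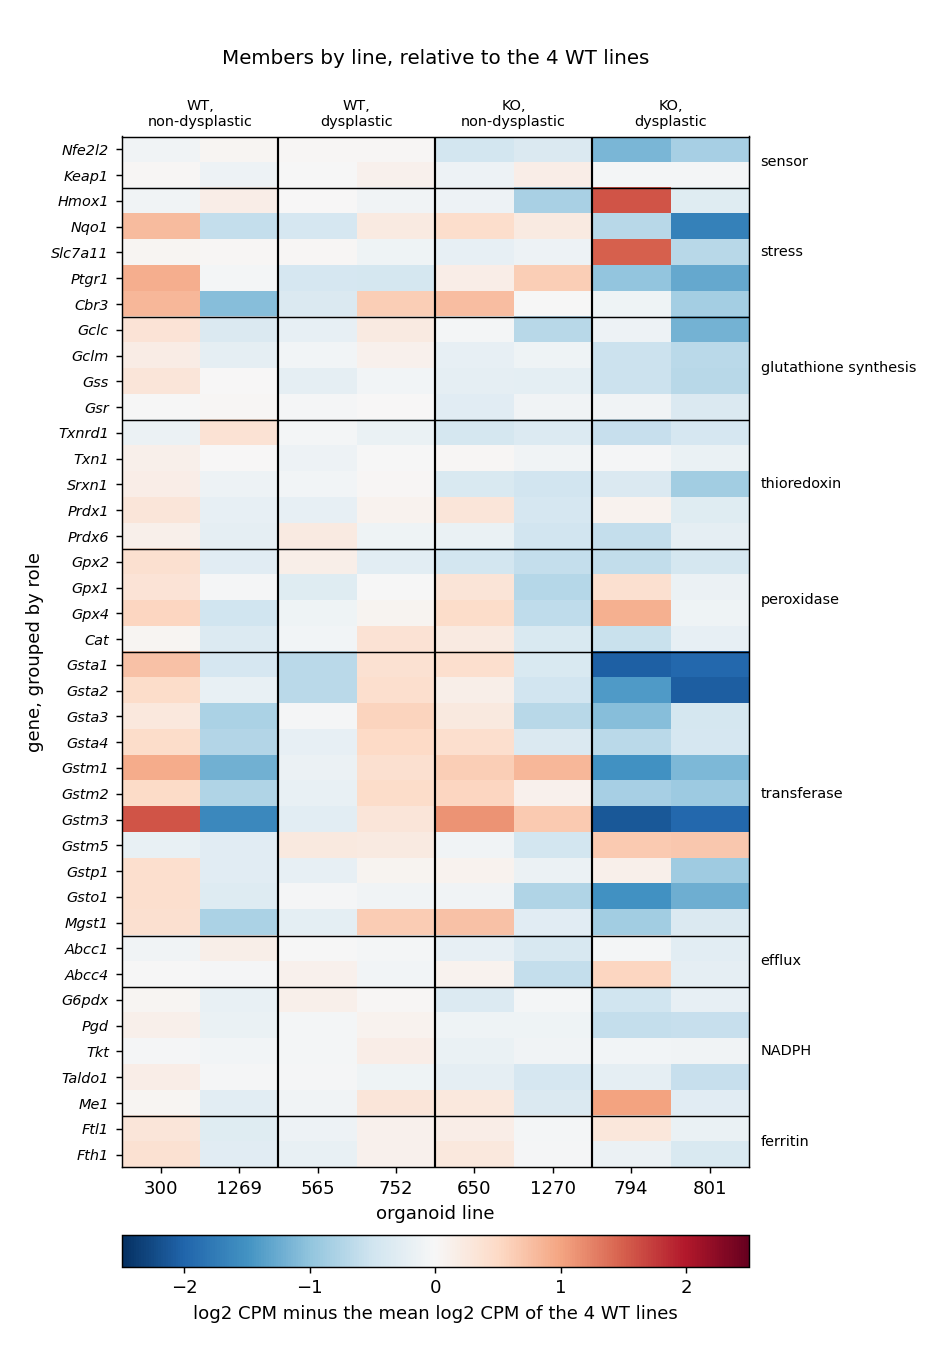
Level of each of the 40 genes (rows, grouped by role) in each of the 8 lines (columns), as log2 CPM minus the mean log2 CPM of the 4 WT lines; red is higher and blue lower. The dysplastic KO lines 794 and 801 are blue for most transferases, while Gstm5 is red in both, and Hmox1, Slc7a11 and Me1 are red in line 794.

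Separation of the lines gave the same picture by counts. In KO, 6 of the 40 genes lay below every WT line (Nfe2l2, Gsr, Txnrd1, Srxn1, Gpx2 and Taldo1), against 1.46% of all genes, and 0 lay above, against 0.92%. None of the 40 was separated over all 20 libraries, where 0.163% of all genes were lower in KO. In these bulk samples, fewer cells of a type and less RNA per cell cannot be told apart.

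Line 300 stood highest for many of these genes. Among the 8 lines it held the highest value for 20 of the 40 genes, against 16.1% of all genes. The lowest value fell in line 801 for 14 of the 40 genes, against 10.6% of all genes, and in line 794 for 13, against 20.8%. Line 1270 was lowest for 8 of the 40, against 17.9% of all genes.

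Nfe2l2 read 1164, 1286, 1264 and 1274 CPM in the WT lines 300, 1269, 565 and 752. Its level was 902, 972, 566 and 699.6 CPM in the KO lines 650, 1270, 794 and 801. The 4 WT lines were close together, the non-dysplastic KO lines lay below them, and the dysplastic KO lines lay lowest. The means were 1247 ± 55.7 CPM in WT and 785 ± 186 CPM in KO lines (SD, n = 4 each). The log2 fold change was -0.69 ± 0.13 (SE), and the adjusted p was 0.74 (edgeR), 7.2e-05 in DESeq2 and 0.077 in limma-voom, or 0.019 in limma-voom with a term for the 6 libraries that stand apart. Without any 1 of the lines the log2 fold change stayed between -0.78 and -0.62.

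Among the dysplastic lines alone the Nfe2l2 log2 fold change was -1.004 ± 0.18 (SE). DESeq2 (adjusted p 7.4e-05) and limma-voom (0.035) called it, and edgeR did not (1.0). With the library number as a replicate block the limma-voom adjusted p was 0.068. By library, the 6 dysplastic KO values ran from 346 to 736 CPM and the 6 dysplastic WT values from 957 to 1458 CPM, with no overlap. Among non-dysplastic lines the log2 fold change was -0.39 ± 0.18, and the libraries of the genotypes overlapped. Whether the difference was larger with dysplasia was tested as an interaction, -0.62 ± 0.25 on the log2 scale, for which edgeR gave an adjusted p of 1.0.

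**Figure D2:**
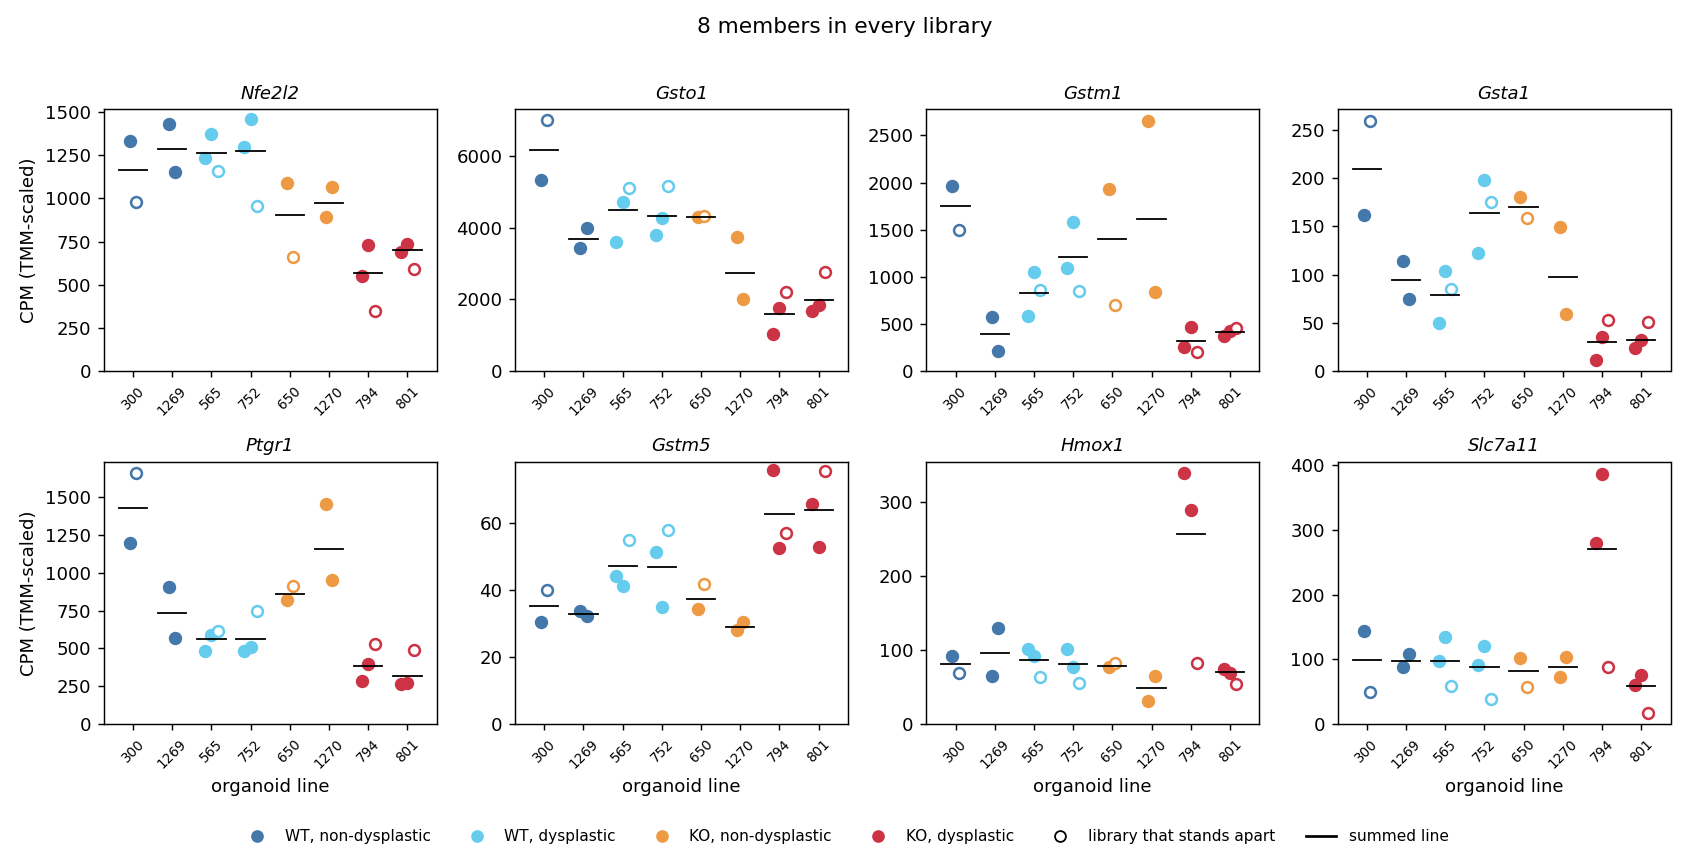
CPM of 8 genes in each of the 20 libraries (points), by line and coloured by group; open points are the 6 libraries that stand apart and bars are the summed line. Nfe2l2 and Gsto1 in lines 794 and 801 sit below all WT libraries, while Hmox1 and Slc7a11 are high in 2 of the 3 libraries of line 794.

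Keap1, the repressor of NRF2, differed little. It read 92.4, 82.6, 90.4 and 98.0 CPM in the WT lines 300, 1269, 565 and 752, and 82.9, 102, 88.2 and 87.1 CPM in the KO lines 650, 1270, 794 and 801. The ranges overlapped, and the log2 fold change was -0.01 ± 0.11 (SE). Among dysplastic lines both KO lines were just below both WT lines, with a value of -0.10 ± 0.16.

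The glutathione synthesis and recycling genes all had negative log2 fold changes between KO and WT. Gss, glutathione synthetase, read 294, 238, 203 and 226 CPM in the WT lines and 204, 200.4, 164 and 148 CPM in the KO lines, in the line order above. Only the WT line 565 reached into the KO range. Its log2 fold change was -0.43 ± 0.11 (SE; adjusted p 1.0 in edgeR's test), and that of Gclm, the modifier subunit of glutamate-cysteine ligase, was -0.39 ± 0.13. Gclm read 247, 186, 207 and 233 CPM in WT and 189, 200.5, 149 and 135 CPM in KO lines; the genotypes overlapped, but not among dysplastic lines (-0.63 ± 0.18). Gclc, the catalytic subunit of that ligase, read 323 to 524 CPM in WT and 183 to 403 CPM in KO lines and differed by -0.47 ± 0.30. Gsr, which reduces oxidised glutathione, was separated by a narrow margin, at 372, 384, 369.8 and 377 CPM in WT and 309, 353, 354 and 294 CPM in KO lines (log2 fold change -0.20 ± 0.11).

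The thioredoxin genes, which reduce protein thiols and peroxiredoxins, were divided. Txnrd1, thioredoxin reductase, read 488, 691, 524 and 479 CPM in the WT lines and 395, 425, 362 and 403 CPM in the KO lines. Srxn1, sulfiredoxin, which restores over-oxidised peroxiredoxins, read 185, 151, 157 and 169 CPM in WT and 127, 119, 128 and 90.8 CPM in KO lines. Both were separated by line, with log2 fold changes of -0.46 ± 0.14 and -0.51 ± 0.15 (SE), and edgeR's adjusted p was 1.0 for both. The value for Txnrd1 was -0.31 ± 0.12 without line 1269, the highest WT line, and -0.57 ± 0.12 without line 300. Thioredoxin itself (Txn1, -0.06 ± 0.11) and the peroxiredoxins Prdx1 (-0.07 ± 0.22) and Prdx6 (-0.37 ± 0.16) overlapped between the genotypes.

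Among the peroxidases only Gpx2, the glutathione peroxidase of gut epithelium, was separated by line. It read 1888, 1188, 1583 and 1202 CPM in WT and 1052, 947, 944 and 1065 CPM in KO lines, a log2 fold change of -0.55 ± 0.19 (SE; adjusted p 1.0 in edgeR's test). The KO lines were alike and the WT lines spread upward from them. Gpx1 (0.01 ± 0.26), the lipid peroxidase Gpx4 (0.20 ± 0.36) and catalase (Cat, -0.22 ± 0.19) overlapped. Of the 5 genes that supply NADPH, 4 had negative values. Taldo1, transaldolase, read 448, 388, 391 and 369 CPM in WT and 340.0, 297, 341 and 267 CPM in KO lines without overlap (-0.36 ± 0.13). Pgd, 6-phosphogluconate dehydrogenase, read 916, 745, 818 and 896 CPM in WT and 777, 779.7, 555 and 566 CPM in KO lines, lowest in the dysplastic KO lines. It differed by -0.35 ± 0.12, G6pdx by -0.27 ± 0.13 and transketolase (Tkt) by -0.10 ± 0.11, all with overlap. Malic enzyme (Me1) had a positive value of 0.24 ± 0.30, carried by line 794. The ferritins Ftl1 (0.05 ± 0.19) and Fth1 (-0.09 ± 0.19), which store iron, and the exporters Abcc1 (-0.23 ± 0.11) and Abcc4 (0.00 ± 0.22) overlapped too.

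Among non-dysplastic lines alone 27 of the 40 genes were negative, against 54.5% of all genes, with a median of -0.12 and -0.02 over all genes. EdgeR called none of the 40 and 0% of all genes. Txnrd1 (-0.52 ± 0.20) and Gss (-0.40 ± 0.16) were lower at an unadjusted p under 0.05 (1.27% of all genes), and 0 of the 40 were higher (0.638%). DESeq2 and limma-voom each called 0 of the 40, and 0.0445% and 0.0395% of all genes. Lines were separated downward for 11 of the 40, against 10.6% of all genes, and upward for 0, against 9.47%. Over libraries Gss and Taldo1 were separated downward, against 1.14% of all genes. The value for Txnrd1 here was -0.21 ± 0.19 without line 1269 and -0.75 ± 0.18 without line 300.

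Among dysplastic lines the values in KO were mostly negative too, and the glutathione transferases had the lowest median of the 9 role groups. Of the 40 genes 32 were negative, against 47.4% of all genes. The median log2 fold change was -0.46, against 0.01 for all genes, and between -0.52 and -0.36 without any 1 of the lines. EdgeR called none of the 40 and 0% of all genes. At an unadjusted p under 0.05, 10 were lower, against 1.34% of all genes, and Gstm5 alone was higher, against 3.02%. DESeq2 called Nfe2l2, Gsto1 and Gsta1 lower, with 0.512% of all genes called, and limma-voom called Nfe2l2 and Gsto1, with 0.797% of all genes called.

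Counted by separation of the dysplastic lines, 26 of the 40 genes were lower in both KO lines than in both WT lines, against 18% of all genes, and 1 was higher, against 19%. Over the 12 dysplastic libraries Nfe2l2, Gstm1, Gstm3 and Gsto1 were separated downward, against 1.59% of all genes. Over the 8 of these libraries that do not stand apart 14 of the 40 were separated downward, against 6.92% of all genes.

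**Figure D3:**
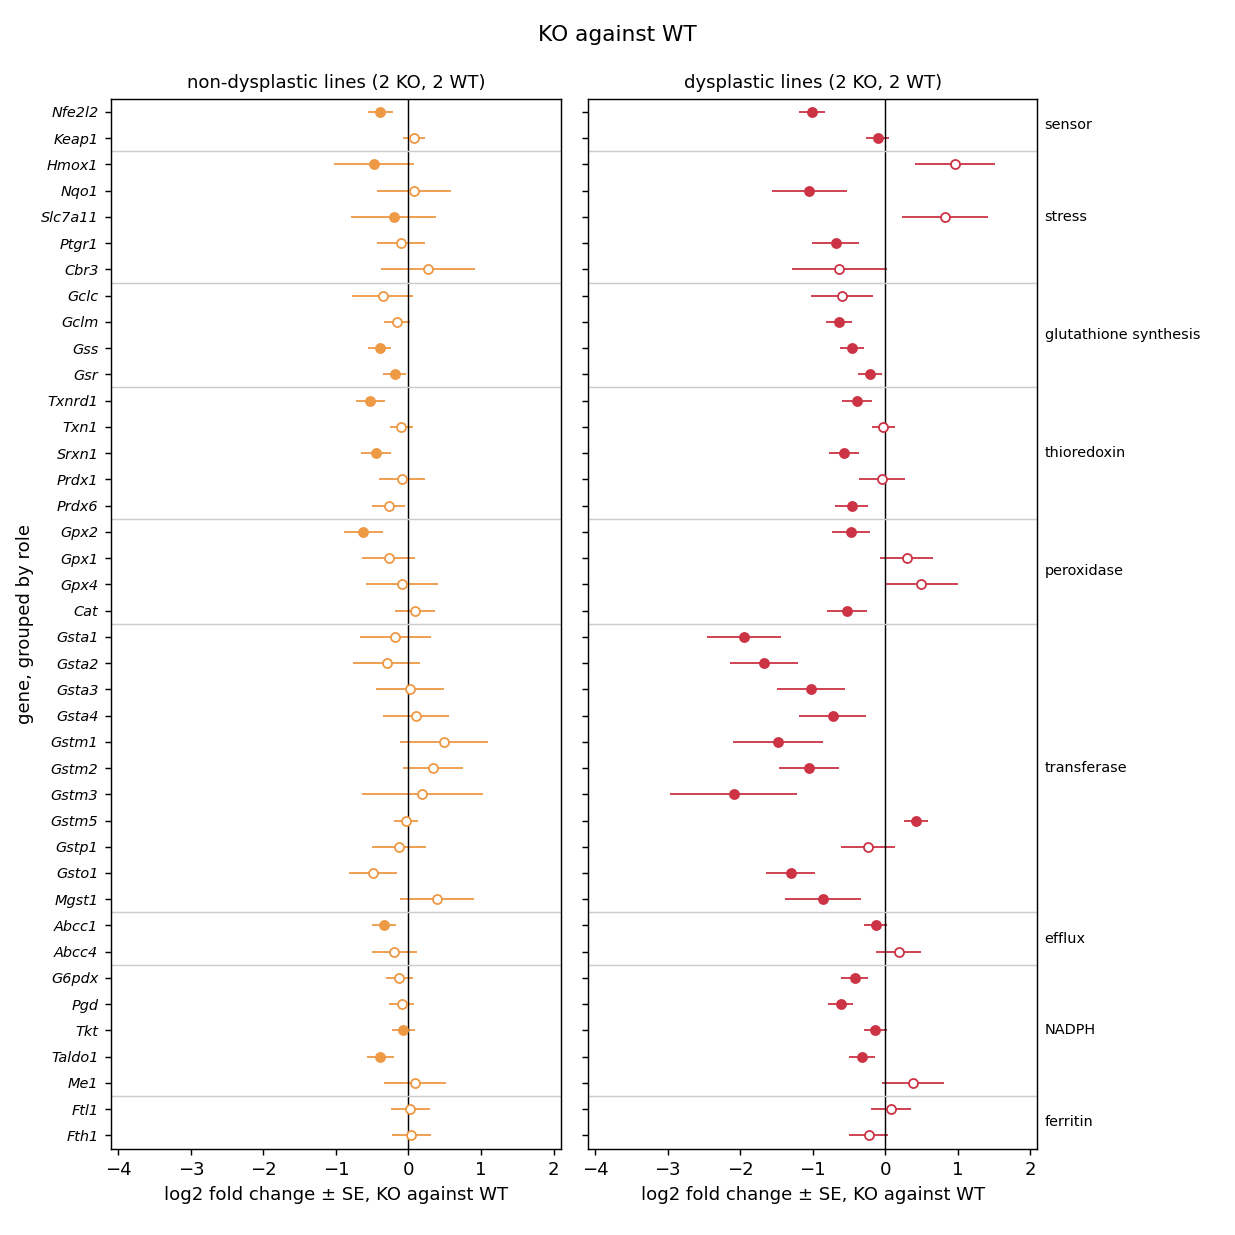
Log2 fold change of KO against WT with its SE (bars) for each of the 40 genes, in non-dysplastic lines (left) and dysplastic lines (right), 2 lines of each genotype in each panel; filled points are genes whose lines do not overlap. In the right panel 9 of 11 transferases are separated below 0 and Gstm5 is separated above it; in the left panel no transferase is separated.

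Glutathione transferases couple glutathione to electrophiles. Of the 11 in the set, 10 had negative values among dysplastic lines and 5 among non-dysplastic lines, and the median log2 fold changes were -1.05 and 0.02. Gsto1, an omega-class transferase, read 6147, 3673, 4488 and 4323 CPM in the WT lines and 4283, 2722, 1594 and 1976 CPM in the KO lines. Both dysplastic KO lines lay below all other lines, and the non-dysplastic KO lines overlapped WT. Its log2 fold change was -1.30 ± 0.33 (SE) among dysplastic lines, the adjusted p being 1.0 (edgeR), 0.024 in DESeq2 and 0.043 in limma-voom. The limma-voom adjusted p was 0.068 with the library number as a replicate block and 0.057 with a term for the 6 libraries that stand apart. By library the dysplastic KO values ran from 1050 to 2763 CPM and the dysplastic WT values from 3587 to 5168 CPM.

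The alpha-class genes Gsta1 and Gsta2 had the same pattern at lower levels. Gsta1 read 209.5, 94.2, 79.3 and 164 CPM in WT and 170.1, 97.6, 30.6 and 32.7 CPM in KO lines, and Gsta2 read 18.7, 12.0, 8.57 and 18.2 CPM in WT and 15.1, 9.84, 5.13 and 3.26 CPM in KO lines. The dysplastic KO lines were lowest for both genes. Among dysplastic lines the log2 fold changes were -1.94 ± 0.51 and -1.67 ± 0.47 (SE), with adjusted p of 1.0 for both in edgeR's test and of 0.021 and 0.10 in DESeq2. The value for Gsta1 was -1.33 ± 0.51 without line 752 and -2.39 ± 0.50 without line 565. Longest coding transcripts of the pair are 97.2% identical over 870 aligned bases and share a run of 253 bases (GENCODE M21), so reads may have been split between them and their separate values are uncertain. Gsta3 differed by -1.02 ± 0.47, Gsta4 by -0.72 ± 0.46 and the microsomal transferase Mgst1 by -0.86 ± 0.52 among dysplastic lines, each without overlap of the lines. The non-dysplastic WT line 1269 was about as low for each, at 274 CPM of Gsta3, 1055 of Gsta4 and 146 of Mgst1. Lines 794 and 801 read 225 and 347 CPM of Gsta3, 1096 and 1301 of Gsta4, and 138 and 195 of Mgst1. Gstp1, the pi-class member, overlapped (-0.24 ± 0.37); its transcript is 95.7% identical to that of Gstp2, and its reads may be shared.

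The mu-class genes Gstm1 and Gstm3 varied widely between lines. Gstm1 read 1746, 398, 831 and 1216 CPM in WT and 1401, 1617, 318 and 418 CPM in KO lines. Gstm3 read 219, 23.8, 60.7 and 90.8 CPM in WT and 160.4, 116, 16.9 and 18.8 CPM in KO lines. The WT line 1269 was about as low as the dysplastic KO lines for both genes, while line 300 of the same group was highest. For Gstm2 line 1269 was likewise low, at 114 CPM against 108 and 103 CPM in lines 794 and 801. Among dysplastic lines the log2 fold changes were -1.47 ± 0.62 for Gstm1, -1.05 ± 0.42 for Gstm2 and -2.09 ± 0.87 for Gstm3 (SE; adjusted p 1.0 for each in edgeR's test). Libraries within a line differed as well, with 2652 and 839 CPM of Gstm1 in the 2 libraries of line 1270 and 574 and 215 CPM in those of line 1269. In each of lines 1269 and 1270, 5 of the 40 genes differed by over 2-fold between the libraries, against 4.1% and 5.24% of all genes. Transcripts of Gstm1 and Gstm3 are 87.0% identical with a shared run of 112 bases, so these values too could be partly shared. Tff2, a mucous neck cell gene, also differed between the lines, at 1123, 15.1, 208 and 828 CPM in WT and 1006, 42.1, 591 and 121 CPM in KO lines. Its part in the transferase values was not tested.

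Gstm5 alone among the transferases was higher in dysplastic KO lines. It read 35.2, 32.9, 47.2 and 47.0 CPM in the WT lines and 37.4, 29.0, 62.8 and 63.8 CPM in the KO lines. The 4 dysplastic lines were above the 4 non-dysplastic lines, and the dysplastic KO lines were highest. Its transcript is at most 66.9% identical to those of the other mu-class members. Among dysplastic lines KO differed from WT by 0.43 ± 0.16 on the log2 scale (SE), edgeR's adjusted p was 1.0, and the libraries overlapped.

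Line 794 held the highest value of the 8 lines for 6 of the 40 genes, a smaller share than the 22% of all genes: Hmox1, Slc7a11, Me1, Gpx1, Gpx4 and Abcc4. Gpx1 read 520, 498 and 1678 CPM in the libraries of line 794, the last being the library that stands apart. Hmox1, haem oxygenase, read 81.2, 96.0, 86.4 and 81.1 CPM in WT and 78.5, 49.3, 257 and 69.8 CPM in KO lines. Slc7a11, the cystine importer that feeds glutathione synthesis and that p53 is known to repress, read 98.7, 97.4, 96.7 and 88.8 CPM in WT and 82.4, 87.7, 270.3 and 59.2 CPM in KO lines. Both genes were high in line 794 alone, and the other 3 KO lines lay below all WT lines. Within line 794 the libraries read 339, 289 and 82.5 CPM for Hmox1 and 281, 387 and 87.9 CPM for Slc7a11, the last of each being the library that stands apart. In 6 of 6 lines that have such a library Slc7a11 was lower there than in the same line's other libraries, by 0.80 to 1.93 on the log2 scale. Me1 read 290.3 to 428 CPM in WT and 415, 271, 701 and 285 CPM in KO lines. Between KO and WT, Hmox1 differed by 0.25 ± 0.39 and Slc7a11 by 0.31 ± 0.41 on the log2 scale (SE; adjusted p 1.0 for both in edgeR's test). Line 794 also had the highest level of Gkn1, a surface mucous cell gene, at 3760 CPM against 22.4 to 463 CPM in the other 7 lines, and the part of this in its values was not tested.

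Nqo1, the quinone reductase often used to read out NRF2, did not separate the genotypes. It read 674, 259, 292 and 458 CPM in WT and 528, 455, 242 and 121 CPM in KO lines. The difference was -0.49 ± 0.36 on the log2 scale (SE) overall and -1.05 ± 0.52 among dysplastic lines, where both KO lines lay below both WT lines. Cbr3, a carbonyl reductase, read 178 to 663 CPM in WT and 208 to 640.4 CPM in KO lines and overlapped fully.

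With both genotypes averaged, few of the 40 genes separated dysplastic from non-dysplastic lines. Ptgr1, which reduces the double bond of prostaglandin and leukotriene metabolites and of lipid aldehydes, was lower in all 4 dysplastic lines, and Gstm5 was higher in all 4. Of the 40 genes 30 were negative, against 53.8% of all genes, with a median of -0.11 and -0.02 over all genes. That median was 0.01 without line 300 and 0.02 when sex was a covariate, so its sign was not kept. EdgeR called none of the 40 and 0% of all genes. At an unadjusted p under 0.05, 8 were lower, against 1.9% of all genes, and 1 was higher, against 4.01%. DESeq2 called Ptgr1, Gsta1 and Gstm3 lower and Gstm5 higher (1.14% of all genes were called), and limma-voom called Ptgr1 and Gstm5 (1.09%).

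Ptgr1 read 1428, 737, 857 and 1157 CPM in the non-dysplastic lines 300, 1269, 650 and 1270, and 566, 559.7, 386 and 315 CPM in the dysplastic lines 565, 752, 794 and 801. The groups did not overlap, and the dysplastic KO lines were lowest. The means were 1045 ± 310.3 and 456 ± 126 CPM (SD, n = 4 each), which differed by -1.23 ± 0.23 on the log2 scale (SE). The adjusted p was 0.56 (edgeR), 1.7e-04 in DESeq2, 0.014 in limma-voom and 0.0063 in limma-voom with the library number as a replicate block. The value ran from -1.43 to -0.96 without any 1 of the lines and was -1.10 with sex as a covariate. Lines were separated downward for Ptgr1 alone, against 1.31% of all genes, and upward for Gstm5 alone, against 1.74%.

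Gstm5 was 33.6 ± 3.60 CPM in non-dysplastic and 55.2 ± 9.35 CPM in dysplastic lines (SD, n = 4 each), which differed by 0.70 ± 0.11 on the log2 scale (SE). The adjusted p was 0.42 (edgeR), 2.0e-04 in DESeq2, 0.019 in limma-voom and 0.087 with the library number as a replicate block. Gsta1 differed by -1.20 ± 0.35 with dysplasia, and by -0.63 ± 0.28 when sex was a covariate. Gstm3 differed by -1.82 ± 0.61, and Gss by -0.34 ± 0.11, and for all 3 genes the lines of the groups overlapped.

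**Figure D4:**
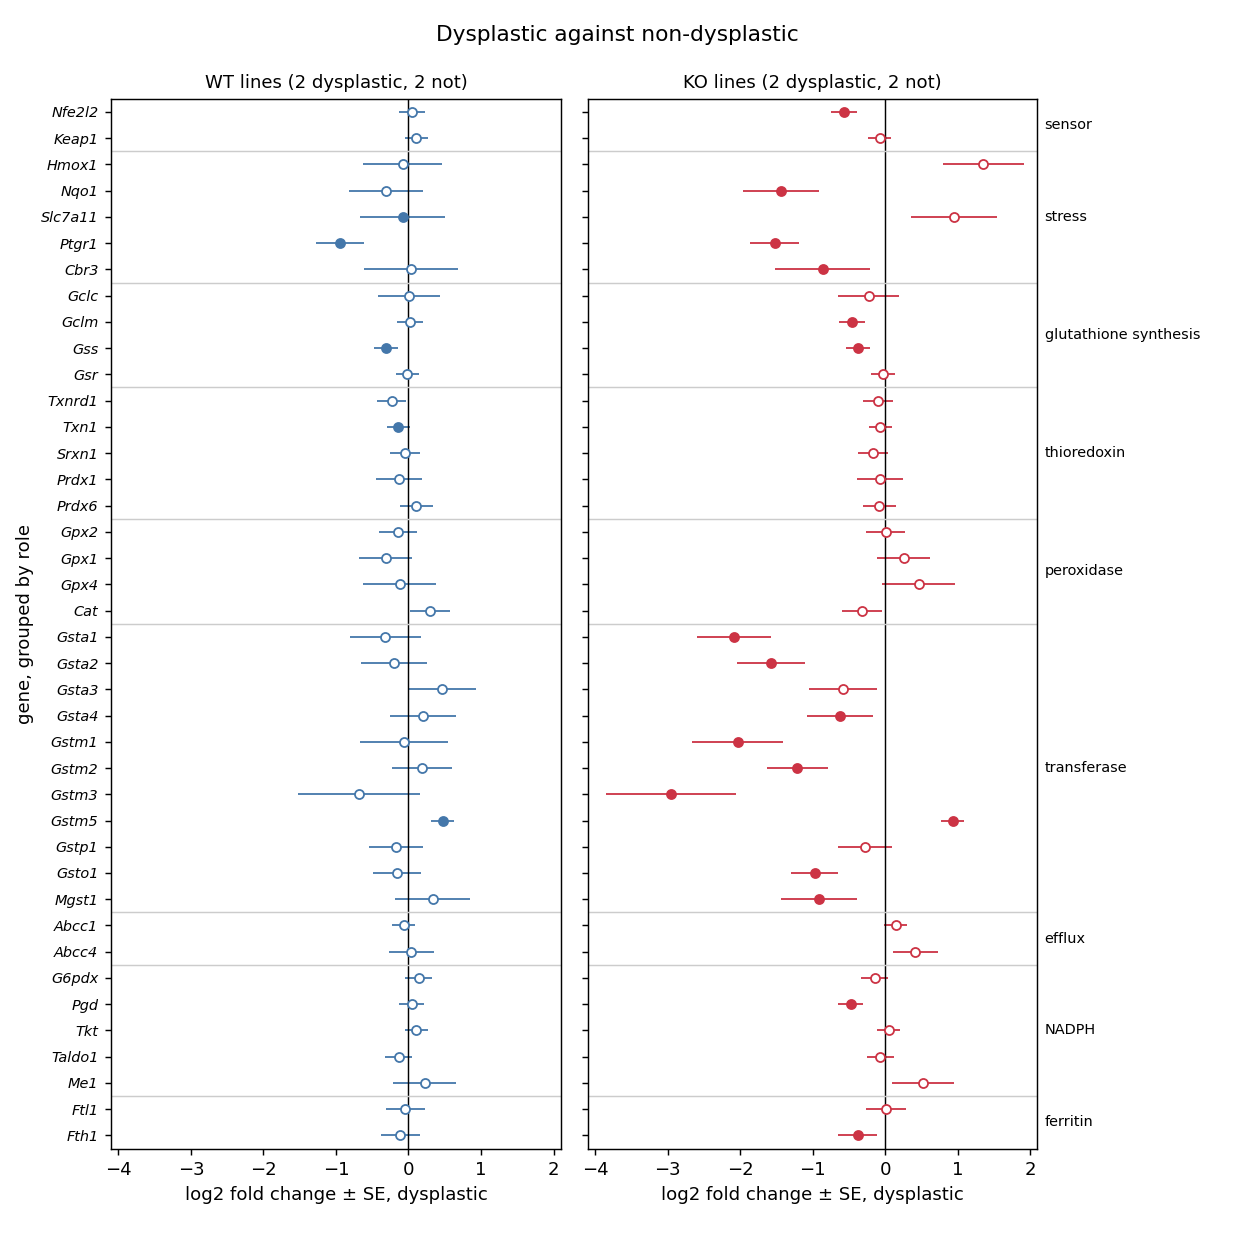
Log2 fold change of dysplastic against non-dysplastic lines with its SE (bars) for each of the 40 genes, in WT lines (left) and KO lines (right), 2 lines of each class in each panel; filled points are genes whose lines do not overlap. Ptgr1 is separated below 0 and Gstm5 above 0 in both panels, and 8 transferases are separated below 0 in the right panel only.

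Within WT lines few of the 40 genes followed dysplasia. EdgeR called 0% of all genes and none of the 40, with Ptgr1 lower (-0.94 ± 0.33) and Gstm5 higher (0.47 ± 0.16) at an unadjusted p under 0.05, against 0.341% and 0.816% of all genes. DESeq2 called 0.0297% and limma-voom 0% of all genes, and 0 of the 40. Lines were separated downward for Ptgr1, Gss, Slc7a11 and Txn1, against 12.1% of all genes, and upward for Gstm5, against 13.7%. The median of the 40 genes was -0.06, and 0.24 without line 300.

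Within KO lines 10 of the 11 transferases had negative values with dysplasia, 6 of them at an unadjusted p under 0.05, and Gstm5 had a positive one. EdgeR called 0% of all genes and none of the 40, with 11 lower and 2 higher at an unadjusted p under 0.05, against 2.8% and 4.74% of all genes. DESeq2 called Gsta1, Gstm1, Gstm3 and Ptgr1 lower and Gstm5 higher (1.46% of all genes were called), and limma-voom called Gsta1, Ptgr1 and Gstm5 (1.89%). With the library number as a replicate block limma-voom called Ptgr1 alone, and with a term for the 6 libraries that stand apart Ptgr1 and Gstm5. The log2 fold changes were -2.08 ± 0.51 for Gsta1, -2.03 ± 0.63 for Gstm1, -2.95 ± 0.90 for Gstm3, -1.52 ± 0.33 for Ptgr1 and 0.93 ± 0.16 for Gstm5 (SE).

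Negative values were found for 29 of the 40 genes within KO lines, against 47.7% of all genes. Lines were separated downward for 16 of the 40, against 15.7% of all genes, and upward for 1, against 16.3%. Over all KO libraries Gsta1, Gsta2, Gstm1, Gstm2, Gstm3 and Ptgr1 were separated downward, against 1.39% of all genes, and Gstm5 upward, against 2.57%. These comparisons share the dysplastic KO lines with the comparison of KO and WT above, so the transferase values are in part the same measurements.

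The interaction of genotype and dysplasia was called for none of the 40 genes. Of the 40, 26 had negative values, against 44.6% of all genes. EdgeR, DESeq2 and limma-voom each called 0% of all genes, and 0 of the 40. At an unadjusted p under 0.05 Gsta1 (-1.76 ± 0.70 on the log2 scale, SE) and Nfe2l2 were lower, against 0.601% of all genes, and none was higher, against 1.19%. A stronger difference in dysplastic than in non-dysplastic lines was therefore not shown for any single member.

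NRF2 binds the core of the antioxidant response element, and promoters of the members were searched for the letters TGACNNNGC on both strands. Windows of 300 bases, 250 before to 50 after the start, were at hand for 34 of the 40 genes in RefSeq, build GRCm38.p6. The letters were in 12 of the 34 (35.3%), and in 14.9% of the 16738 genes of the count table that have a window. The first letters are shared with the AP-1 site TGACTCA, so a match can belong to either. A match is a description of letters, not of binding, and elements farther away were not searched. Stretches are shown 5′ to 3′ on the gene's strand, the match in capitals, for 3 genes that were lower in KO at an unadjusted p under 0.05, for Gstm5, and for 2 that overlapped between the genotypes:

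Nfe2l2, chr2:75704874-75704913, minus strand: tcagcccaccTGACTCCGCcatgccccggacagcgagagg

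Txnrd1, chr10:82859093-82859143, plus strand: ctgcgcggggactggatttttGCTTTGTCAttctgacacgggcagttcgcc

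Gclm, chr3:122245402-122245452, plus strand: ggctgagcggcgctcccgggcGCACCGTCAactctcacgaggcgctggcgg

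Gstm5, chr3:107895791-107895841, plus strand: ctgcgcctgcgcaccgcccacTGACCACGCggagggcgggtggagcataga

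Prdx1, chr4:116685445-116685495, plus strand: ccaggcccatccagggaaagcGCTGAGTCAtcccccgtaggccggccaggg

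Me1, chr9:86695891-86695941, minus strand: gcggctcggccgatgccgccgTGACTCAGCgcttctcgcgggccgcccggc

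The match began 240 bases before the start in Nfe2l2, 92 in Txnrd1, 134 in Gclm, 42 in Gstm5, 133 in Prdx1 and 6 in Me1. It lay on the opposite strand in Txnrd1, Gclm and Prdx1. Genes with a match thus included ones that were lower in KO, one that was higher with dysplasia and ones that overlapped between the groups.

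A wider list of 61 antioxidant and drug-metabolism genes that are not among the 40 gave a weaker lean. Of its 57 tested genes 39 were negative between KO and WT, against 51.5% of all genes, with a median of -0.08 and -0.01 over all genes. EdgeR called 0, with 6 lower and 1 higher at an unadjusted p under 0.05, against 1.63% and 2.4% of all genes. DESeq2 and limma-voom each called Ephx1 alone, against 0.549% and 0.497% of all genes. Ephx1, an epoxide hydrolase, read 246, 370.4, 269 and 280.3 CPM in WT and 157, 73.3, 53.8 and 82.2 CPM in KO lines, a log2 fold change of -1.72 ± 0.29 (SE). Every KO line lay below every WT line. Between dysplastic KO and WT lines 36 of the 57 were negative, against 47.4% of all genes, with a median of -0.16 and 0.01 over all genes. At an unadjusted p under 0.05, 8 were lower and 2 higher, against 1.34% and 3.02% of all genes. DESeq2 called 4 and limma-voom 5, against 0.512% and 0.797% of all genes. Aldh3a1, an aldehyde dehydrogenase of epithelia, read 449, 287, 268 and 503 CPM in WT and 334, 189.6, 36.6 and 126 CPM in KO lines, lowest in the dysplastic KO lines. Akr1b8, an aldo-keto reductase, differed by -0.54 ± 0.15 between KO and WT and by -0.51 ± 0.15 with dysplasia. With dysplasia 34 of the 57 were negative, against 53.8% of all genes, with a median of -0.12 and -0.02 over all genes. There, 5 were lower and 1 higher at an unadjusted p under 0.05, against 1.9% and 4.01% of all genes. Aldh1a1, a retinaldehyde dehydrogenase, differed by -0.85 ± 0.20 and was called by DESeq2 (1.14% of all genes) and limma-voom (1.09%), and limma-voom also called Txnrd2 (-0.59 ± 0.19).

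A list of 8 antioxidant genes linked to p53 was taken for comparison. Between KO and WT 5 were negative, against 51.5% of all genes, and 3 were lower at an unadjusted p under 0.05, against 1.63%. Trp53inp1, a stress-induced partner of p53, read 53.8, 224, 105 and 88.7 CPM in WT and 45.2, 19.5, 33.7 and 39.5 CPM in KO lines, a log2 fold change of -1.75 ± 0.47 (SE). Sesn2, a sestrin, differed by -0.85 ± 0.24 and Aldh4a1 by -0.61 ± 0.18. All 3 were separated by line, against 1.46% of all genes. EdgeR called 0 of the 8, and DESeq2 (0.549% of all genes) and limma-voom (0.497%) each called Trp53inp1 alone.

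The 6 libraries that stand apart moved the members in both directions, by transcript length. Relative to the same line's other libraries, 13 of the 40 genes were lower in 6 of 6 lines and 13 were higher in 6 of 6. Slc7a11, with a longest transcript of 9223 bases, was lower by a median of 1.46 on the log2 scale, and Gpx1 and Gpx4, at 1072 and 995 bases, were higher by 1.37 and 1.31. Nfe2l2, at 2475 bases, was lower in 6 of 6 lines, with a median difference of -0.48. Across the 40 genes Spearman's rho between this difference and transcript length ran from -0.69 to -0.36 over the 6 lines, and from -0.62 to -0.46 across 12603 genes, as a description across genes that share libraries. WT and KO have 3 such libraries each. Without the 6 libraries Nfe2l2 differed by -0.96 ± 0.14 and Gsto1 by -1.35 ± 0.29 between dysplastic KO and WT lines (SE).

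**Figure D5:**
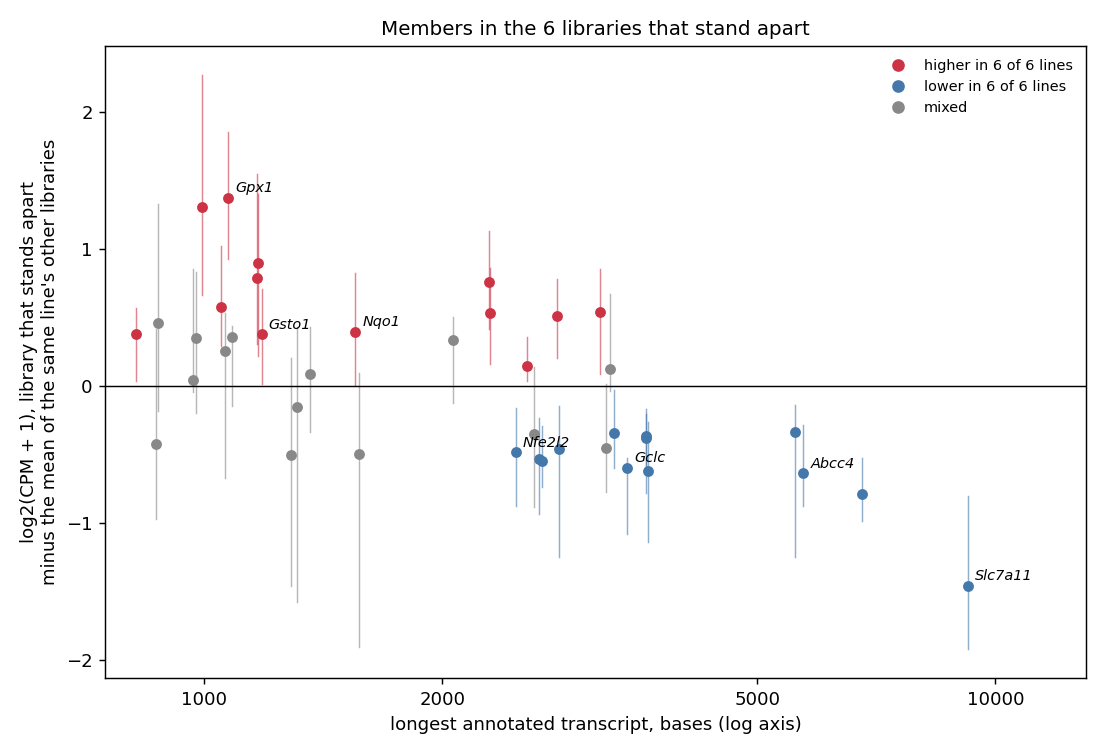
Difference in log2(CPM + 1) between the library that stands apart and the mean of the same line's other libraries, against the longest annotated transcript of each of the 40 genes in bases (log axis); points are medians over 6 lines and bars the range. Genes with short transcripts lie mostly above 0 and genes with long transcripts below it, with Slc7a11 lowest at -1.46.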

How the data were processed

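The deposited values are whole-number read counts per gene symbol, with no normalization. STAR 2.5, bcl2fastq and build mm9 are named in the submitters' processing notes. For the annotation, the counter and the use of strand the entry is: not given in the sources used here. An mRNA library kit was used, per the labels' protocols.

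Libraries of one line were summed, because the line was taken as the replicate. The p-values of edgeR and DESeq2 thus reflect variation among these lines alone, which may be technical. Those of limma-voom, fitted on libraries, also draw on variation between the libraries of a line. Counts were filtered with filterByExpr, scaled by TMM and fitted in edgeR 4.0.16 (R 4.3.3) with a mean per genotype and dysplasia class and 4 residual degrees of freedom. P-values were Benjamini-Hochberg adjusted over all 13476 genes, with a threshold of 0.05. Alternatives were DESeq2 1.42.0 on line sums and limma-voom 3.58.1 on libraries with lines as correlated blocks (correlation 0.22, over 12671 genes), with a replicate block or a term for the 6 libraries that stand apart.

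Values in every line are given for Nfe2l2, Keap1, up to 6 members per comparison with the smallest edgeR p under 0.05 unadjusted, those separated over all 8 lines and those called by DESeq2 or limma-voom, and for 4 genes at most from each other list; Gstm1, Hmox1, Slc7a11, Me1 and Nqo1 were added after their values were seen. The members, roles and lists were chosen with earlier results of these data known. Separation over libraries was added after seeing the data. Transcript lengths and identities are from GENCODE M21 and promoters from RefSeq GRCm38.p6; no coordinates of the counts are given. The test was also run on simulated counts, for KO against WT as the mean of both dysplasia classes. These counts had no libraries that stand apart, and the outcome is not given here. The run is therefore no measure of what the test could call in the real data.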

Additional observations from a re-analysis of the deposited data

Results flagged for a closer look

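In 160 groups of 4 lines, 4 groups for each of the 40 genes, 7 had a line far from the other 3 (Dixon's 95% value). Chance gives about 1 in 20 such groups, so the flags were no more frequent than that, and the groups share lines. Hmox1 in line 794, at 257 CPM, stood apart upward among the KO lines and among the dysplastic lines. Slc7a11 in line 794, at 270.3 CPM, stood apart upward among the KO lines. Gpx4 in line 794, at 308 CPM, stood apart upward among the dysplastic lines, with 758.6 CPM in the library of that line that stands apart and 169.9 and 144 CPM in the other 2. Tkt in line 752, at 1099.7 CPM, was apart upward among the WT lines and among the dysplastic lines, and in line 650, at 876 CPM, downward among the KO lines. The range of Tkt over all 8 lines was 876 to 1099.7 CPM.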

How the results depend on the processing

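For the 25 named results, all 425 alternative fits kept the direction, and 18 of them made a call where edgeR on line sums made none. The named results were picked by small p, separation of lines or a call in these same counts. A kept direction was therefore likely beforehand and is no independent support for them. DESeq2 called 2 of the 40 genes between KO and WT (0.549% of all genes), 3 among dysplastic lines (0.512%), 4 with dysplasia (1.14%) and 5 with dysplasia in KO lines (1.46%). Limma-voom called 2 among dysplastic lines (0.797% of all genes), 2 with dysplasia (1.09%) and 3 with dysplasia in KO lines (1.89%). With a term for the libraries that stand apart it called 1, 1, 2 and 2 in the order used for DESeq2. With the library number as replicate block it called 1 with dysplasia and 1 with dysplasia in KO lines, Ptgr1 both times. The shares of all genes called with the added term or block are not given here, so these counts have no background. Deviations from the mean of each genotype and dysplasia class correlated between -0.70 and 0.68 for same-numbered libraries of different lines (median 0.08). For differently numbered libraries of different lines the median was -0.19. These deviations include differences between lines, and all libraries numbered 3 stand apart, so whether the number pairs libraries was not settled. Without any 1 line edgeR called 0 of the 40 in each comparison. Separated downward by library were 0 of the 40 genes between KO and WT (20 libraries, 0.163% of all genes) and 4 among dysplastic lines (12 libraries, 1.59%). Over those libraries that do not stand apart the counts were 1, with no share of all genes given here, and 14, with the share given above. The median for dysplasia in WT lines was 0.24 without line 300. With 2 lines per combination edgeR called 0 of the 13476 genes tested in each comparison. Differences of several standard errors went uncalled too, such as that of Nfe2l2 between KO and WT (-0.69 ± 0.13, SE, edgeR's adjusted p 0.74). Trp53, at 112 to 161 CPM in WT and 4.99 to 26.9 CPM in KO lines, was not called either. A lack of edgeR calls therefore does not show that a gene was unchanged.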
